A study of Homo sapiens with 6 samples.

Results

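The insulin and insulin-like growth factor (IGF) system was described here by 9 genes, taken by name from the 61228 gene names of the count table: the IGF-binding proteins IGFBP3, IGFBP4, IGFBP6 and IGFBP7, the receptors IGF1R, IGF2R and INSR, and the receptor substrates IRS1 and IRS2. All 9 were in the table, and all 9 passed the filter on low counts. The data were RNA-seq gene counts of polyadenylated RNA from MDA-MB-231, an established human breast cancer line of the triple-negative type, embedded in collagen I. Knockout (KO) cells had received Cas9 and gene-specific guides by nucleofection, and their treatment label names ETV1, ETV4 and ETV5, related ETS transcription factors, while the sample titles name ETV4 only. Control cells had received Cas9 with control guides and shared the same line, medium and 3D culture, and each group had 3 libraries. The tag c39 in the KO library names is not explained, so whether they come from a single clone is not stated, and nothing says that replicates are separate cultures. P-values therefore measure only the spread between these libraries, which may be technical.

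IGF1, IGF2 and insulin are secreted hormones that bind the receptor tyrosine kinases IGF1R and INSR. The activated receptors phosphorylate the docking proteins IRS1 and IRS2, which recruit PI3-kinase and so start AKT and mTOR signalling. IGF-binding proteins hold IGFs outside the cell, proteases such as pappalysins release them, and IGF2R, which has no kinase domain, carries IGF2 to lysosomes. In breast cancer cells the system is known for its part in growth and survival.

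IGFBP3 and IRS1 were the 2 members that differed between the groups in the comparison over all genes. Their promoter sequences are shown because they are the genes the results turn on, and that of IGF2R is shown as a member with nearly equal levels in both groups. The sequences are from RefSeq (GRCh38.p14), written 5′ to 3′ on the gene's strand, and run from 250 bases before to 50 bases after the start in that RefSeq table. These starts are not those of the GENCODE spans given with each gene: the IGFBP3 window lies wholly inside the GENCODE span of IGFBP3, and the IRS1 window wholly upstream of that of IRS1. Capitals mark GGAA, the core that ETS factors recognise, or its reverse complement TTCC. The windows are chr7:45921223-45921522 (minus strand) for IGFBP3, chr2:226799771-226800070 (minus strand) for IRS1 and chr6:159968832-159969131 (plus strand) for IGF2R.
IGFBP3: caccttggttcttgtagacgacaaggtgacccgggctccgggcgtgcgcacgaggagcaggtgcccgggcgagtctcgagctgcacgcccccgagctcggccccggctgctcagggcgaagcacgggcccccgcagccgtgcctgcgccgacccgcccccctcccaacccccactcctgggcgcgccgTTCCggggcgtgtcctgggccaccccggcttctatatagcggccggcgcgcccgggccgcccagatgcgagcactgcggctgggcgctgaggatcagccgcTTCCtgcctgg
IRS1: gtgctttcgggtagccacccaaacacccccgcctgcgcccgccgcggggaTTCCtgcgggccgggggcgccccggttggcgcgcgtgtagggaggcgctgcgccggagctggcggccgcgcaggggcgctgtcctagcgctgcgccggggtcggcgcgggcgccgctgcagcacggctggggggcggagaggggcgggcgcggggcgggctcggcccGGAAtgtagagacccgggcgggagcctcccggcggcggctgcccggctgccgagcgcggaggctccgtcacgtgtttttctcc
IGF2R: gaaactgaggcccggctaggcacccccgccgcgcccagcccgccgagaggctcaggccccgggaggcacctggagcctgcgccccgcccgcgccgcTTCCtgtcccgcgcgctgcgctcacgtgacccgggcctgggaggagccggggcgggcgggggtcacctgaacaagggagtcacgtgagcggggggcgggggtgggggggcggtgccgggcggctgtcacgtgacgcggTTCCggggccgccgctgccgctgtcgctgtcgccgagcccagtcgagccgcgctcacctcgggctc
Promoters were found for 8 of the 9 members. The GGAA core, searched on both strands, occurred 2 times in each of the 3 windows shown, and between 1 and 8 times in the 8 windows. It is common: 95.5% of 35116 promoter windows of this length held it, with a median of 3 cores. The longer letters CCGGAA, which contain the core, occurred once each in the IGFBP3, IRS1 and IGF2R windows and in that of IGFBP6, against 17.2% of all windows. The full CCGGAAGT, close to the sequence preferred by the ETV1, ETV4 and ETV5 group, was in none of the 8 windows and in 4.14% of all windows. These matches describe letters in a window and not binding. All 8 windows were rich in G and C, from 61.7% in IGFBP6 to 79.7% in IGF1R, against a median of 58.7% over all windows.

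Library totals ran from 18042601 to 19250921 counts in KO and from 18806653 to 23232770 in control cells. A first principal component with 49.3% of the variance separated the groups, and the next, with 39.4%, set replicate 3 of both groups apart. ETV1 had 135, 137 and 155 CPM (counts scaled to library size) in KO libraries, against 218, 213 and 238 CPM in control libraries (log2 fold change -0.65, SE 0.08). ETV4 had 65.5, 61.5 and 64.0 CPM in KO libraries, against 95.3, 94.9 and 91.4 CPM in control libraries (-0.56, SE 0.06). ETV5 had 114, 113 and 112 CPM in KO libraries, against 117, 108 and 112 CPM in control libraries; gene counts do not show how far a Cas9 cut disrupted a protein. Markers of the line (VIM, CD44, EGFR, KRT18 and AXL, with TWIST2 at 1 count in all) summed to between 6599 and 8050 CPM in KO and between 7476 and 9434 CPM in control libraries, and CDH1, ESR1 and PGR had at most 5 counts in any library. ERBB2 was listed with them as absent in triple-negative lines, but was detected, at 55.7 ± 1.52 CPM in KO and 61.2 ± 3.47 CPM in control cells. The 8 markers of immune, endothelial, fibroblast and liver cells summed to between 4.40 and 6.23 CPM in KO and between 7.35 and 9.27 CPM in control libraries. CD3E was at 0 and PDGFRA, COL1A2 and DCN had at most 4 counts in any library. The endothelial marker PECAM1 was the member of this list that fell, to 3.74 ± 0.947 CPM in KO, against 6.76 ± 0.631 CPM in control cells (adjusted p = 0.0250 by edgeR, and up to 0.105 with 1 library left out, where it passed in 3 of 6 fits); its part in the results was not tested.

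Of the 9 members, IRS1 rose and IGFBP3 fell in KO cells, and 7 did not pass (edgeR's quasi-likelihood test, Benjamini-Hochberg adjusted over 14704 genes, threshold 0.05). Over all genes tested, 9.70% passed, 3.28% higher and 6.42% lower. CPM of the groups did not overlap for 2 members, against 31.7% of all genes tested. The median log2 fold change, KO over control, was -0.05 over the members and 0.00 over all tested genes. In bulk RNA, fewer cells that make a transcript and less of it per cell cannot be told apart.

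**Figure D1:**
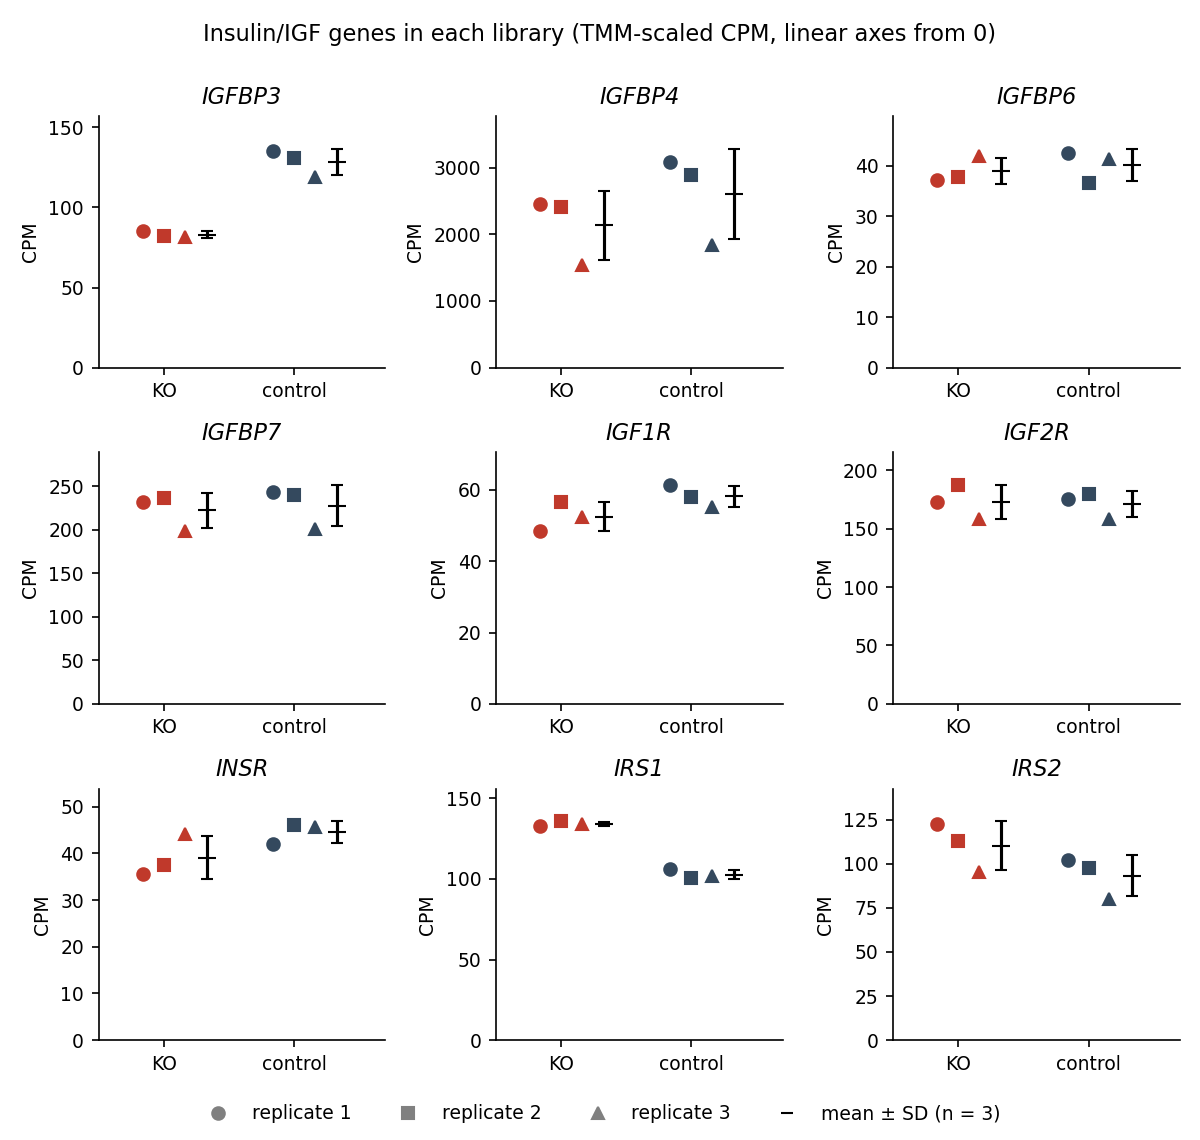
CPM of each of the 9 genes in every library (vertical axes from 0), with KO libraries in red and control libraries in dark blue; marker shapes give the replicate number and black bars the mean ± SD (n = 3). IGFBP3 was lower and IRS1 higher in every KO library than in any control library, while IGFBP3, IGFBP4, IGFBP7, IGF2R and IRS2 were lowest in replicate 3 of both groups.

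IGFBP3 (ENSG00000146674, GRCh38 chromosome 7, 45912245 to 45921874, minus strand) encodes the main IGF carrier of blood plasma. It had 85.4, 82.5 and 81.3 CPM in KO libraries, against 135, 131 and 119 CPM in control libraries. The KO values lay close together and all were below the lowest control value. IGFBP3 averaged 83.1 ± 2.12 CPM in KO and 128 ± 8.19 CPM in control cells (SD, n = 3 each), 1.54-fold lower in KO (log2 fold change -0.63, SE 0.06, adjusted p = 6.54e-04 by edgeR). It passed in all 6 fits that left out 1 library, with edgeR adjusted p between 4.36e-04 and 0.00689. The counts behind these values were 1595, 1589 and 1477 in KO and 2857, 2424 and 2803 in control libraries.

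IGFBP4 (ENSG00000141753, chromosome 17, 40443461 to 40457731, plus strand) encodes an inhibitory binding protein that the pappalysin PAPPA cleaves. It had 2458, 2407 and 1536 CPM in KO libraries, against 3086, 2891 and 1832 CPM in control libraries. Replicate 3 was the lowest library of both groups, so the groups overlapped. The log2 fold change was -0.29 (SE 0.25, adjusted p = 0.548 by edgeR), with a 95% interval from -0.90 to 0.32. With 1 library left out it ran from -0.49 (without control replicate 3) to -0.08 (without KO replicate 3) and did not pass in any of these 6 fits (edgeR adjusted p from 0.201 to 0.867). Between libraries of the same number the log2 ratio of KO to control was -0.33, -0.26 and -0.25. With replicate number as a block in the fit, IGFBP4 was lower in KO (log2 fold change -0.28, SE 0.03, adjusted p = 2.24e-10 by edgeR). The labels do not state that libraries of the same number belong together, and this fit called 33.9% of all genes tested.

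The remaining binding proteins differed by less than their spread. IGFBP6 (ENSG00000167779, chromosome 12, 53097436 to 53102345, plus strand), which binds IGF2 more tightly than IGF1, had 37.1, 37.7 and 41.8 CPM in KO libraries, against 42.5, 36.5 and 41.3 CPM in control libraries. Its log2 fold change was -0.05 (95% interval -0.23 to 0.14, adjusted p = 0.790 by edgeR). IGFBP7 (ENSG00000163453, chromosome 4, 57030773 to 57110385, minus strand), a matrix-associated relative that binds IGFs weakly, had 232, 236 and 199 CPM in KO libraries, against 243, 240 and 201 CPM in control libraries. The groups overlapped for both genes, and the log2 fold change of IGFBP7 was -0.04 (95% interval -0.25 to 0.18, adjusted p = 0.867 by edgeR). Neither passed with the replicate block (adjusted p = 0.627 by edgeR for IGFBP6 and 0.476 for IGFBP7). IGFBP7 is overlapped on the opposite strand by IGFBP7-AS1, with 15, 29 and 83 counts in KO and 19, 13 and 83 in control libraries, and at one end by POLR2B. The kit keeps strand, but the strand setting of the counting is not given in the sources used here, so reads over these overlaps are uncertain. Antisense genes also overlap IGF1R (AC069029.1 and AC036108.1) and IRS2 (AL162497.1), where the same limit applies. The names of these antisense genes were not found in the count table.

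None of the 3 receptors passed in the comparison of groups. IGF1R (ENSG00000140443, chromosome 15, 98648539 to 98964530, plus strand), the main signalling receptor for IGFs, had 48.4, 56.6 and 52.3 CPM in KO libraries, against 61.3, 58.1 and 55.2 CPM in control libraries. KO replicate 2 lay above control replicate 3, so the groups overlapped. The log2 fold change was -0.15 (SE 0.08, 95% interval -0.32 to 0.03, adjusted p = 0.273 by edgeR). With the replicate block IGF1R was lower in KO (adjusted p = 0.0319 by edgeR), although the log2 ratios of same-numbered libraries were uneven, at -0.34, -0.04 and -0.08. INSR (ENSG00000171105, chromosome 19, 7112255 to 7294034, minus strand), the insulin receptor, had 35.6, 37.5 and 44.2 CPM in KO libraries, against 42.0, 46.1 and 45.6 CPM in control libraries. KO replicate 3 lay above control replicate 1, and the other two KO libraries lay below every control. The log2 fold change was -0.19 (SE 0.09, 95% interval -0.40 to 0.02, adjusted p = 0.240 by edgeR); with the block INSR was lower in KO (adjusted p = 0.0109 by edgeR). Gene counts do not separate the 2 splice forms of the insulin receptor.

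IGF2R (ENSG00000197081, chromosome 6, 159969099 to 160113507, plus strand), the receptor that clears IGF2 and sorts lysosomal enzymes, had 173, 187 and 158 CPM in KO libraries, against 175, 180 and 158 CPM in control libraries. The groups had nearly the same range. Its log2 fold change was 0.01 (SE 0.08, 95% interval -0.17 to 0.20, adjusted p = 0.934 by edgeR), and it did not pass with the replicate block (adjusted p = 0.817 by edgeR). AIRN, an antisense RNA within IGF2R, had no count in any library. The pseudogene AL353625.1 overlaps IGF2R on the same strand and was not found by name in the count table, so reads over it are uncertain.

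The substrates of the receptors were higher in KO, IRS1 in the comparison of groups and IRS2 with the replicate block. IRS1 (ENSG00000169047, chromosome 2, 226731317 to 226799759, minus strand) had 133, 136 and 134 CPM in KO libraries, against 106, 101 and 102 CPM in control libraries. Every KO library was above every control library. IRS1 averaged 134 ± 1.47 CPM in KO and 103 ± 2.82 CPM in control cells, 1.31-fold higher in KO (log2 fold change 0.38, SE 0.05, adjusted p = 0.00310 by edgeR). It passed in all 6 fits that left out 1 library (edgeR adjusted p from 0.00290 to 0.0307). IRS2 (ENSG00000185950, chromosome 13, 109752698 to 109786568, minus strand), the second widely expressed docking protein of this family, had 123, 113 and 95.7 CPM in KO libraries, against 102, 97.6 and 80.2 CPM in control libraries. KO replicate 3 lay below control replicates 1 and 2, so the groups overlapped. The log2 fold change of IRS2 was 0.24 (SE 0.11, 95% interval -0.01 to 0.50, adjusted p = 0.219 by edgeR). With 1 library left out it passed in 1 of 6 fits, that without KO replicate 3 (log2 fold change 0.36, adjusted p = 0.0396 by edgeR); in the other fits the edgeR adjusted p ran up to 0.457, and the log2 fold change was 0.15 without control replicate 3. It also passed with no filter on low counts (adjusted p = 0.0372 by edgeR). With the replicate block it was higher in KO (adjusted p = 5.88e-06 by edgeR), with same-numbered log2 ratios of 0.26, 0.21 and 0.25. IRS4, a further IRS gene, had no count in any library.

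**Figure D2:**
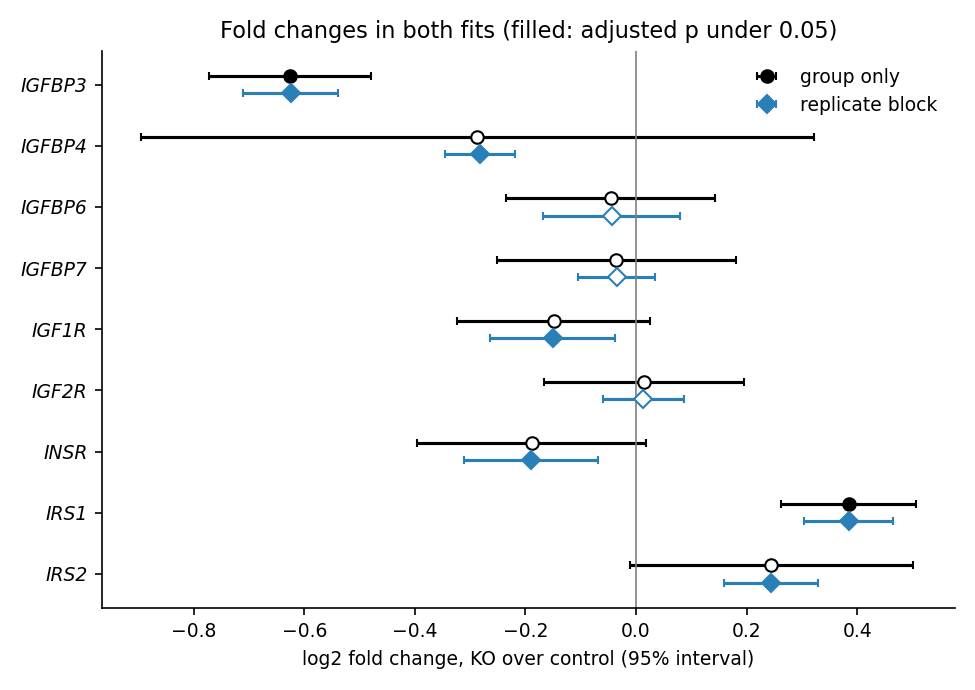
Log2 fold change, KO over control, with its 95% interval for each member in the fit with group alone (black circles) and in the fit with replicate number as a block (blue diamonds); filled symbols had an adjusted p under 0.05. IGFBP3 and IRS1 were filled in both fits, and IGFBP4, IGF1R, INSR and IRS2 only with the block, which narrowed the interval of IGFBP4 most.

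With the replicate block, 6 of the 9 members passed, 2 higher and 4 lower in KO, against 33.9% of all genes tested (17.2% higher and 16.7% lower). Without both replicate-3 libraries 5 members passed, against 25.5% of all genes tested. The block gave almost the same fold changes as the fit with group alone and smaller standard errors. Without both replicate-3 libraries the log2 fold change of INSR was -0.27, against -0.19 with all libraries, and that of IGFBP6 was -0.08, against -0.05. Members differed in how far replicate 3 departed from replicates 1 and 2. The CPM of IGFBP4 in replicate 3 was 0.632 times the mean of replicates 1 and 2 in KO and 0.613 times in control cells. Both ratios lay below the 5th percentile of all tested genes, which was 0.691 in KO and 0.699 in control cells. IRS2 (0.812 in KO and 0.804 in control), IGFBP7 (0.849 and 0.833), IGF2R (0.879 and 0.892) and IGFBP3 (0.968 and 0.897) were also lower in replicate 3 of both groups. IRS1 hardly moved, at 0.997 in KO and 0.983 in control cells, whereas INSR was at 1.21 in KO and 1.04 in control cells. The labels do not say what sets replicate 3 apart.

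**Figure D3:**
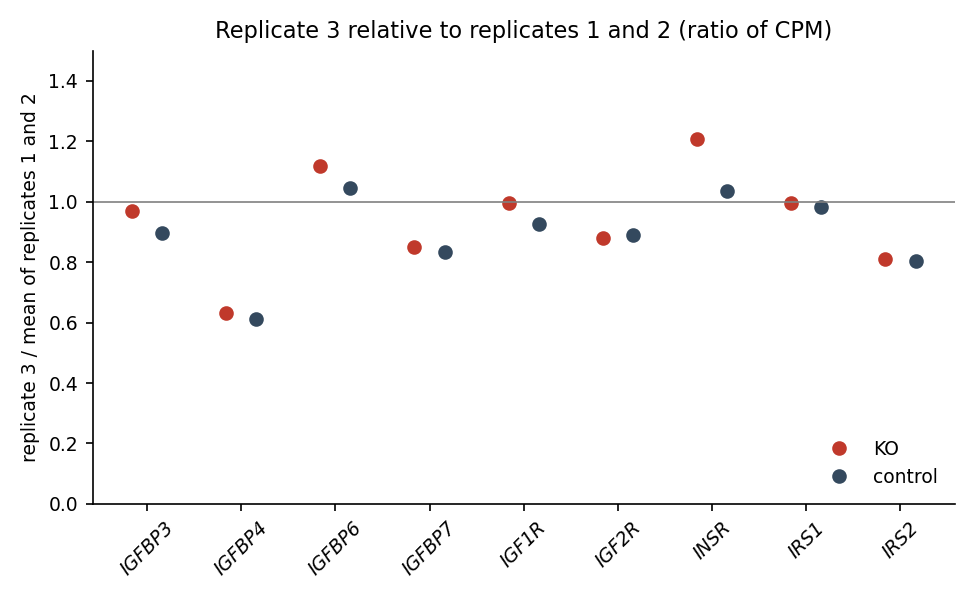
Ratio of CPM in replicate 3 to the mean of replicates 1 and 2 within KO (red) and control (dark blue) for each member. IGFBP4 lay near 0.6 in both groups and IRS1 near 1.

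Levels were set side by side per length, as CPM per kilobase of all exons annotated in GENCODE release 29. In KO cells the order was IGFBP4 (970 ± 235 CPM per kb), IGFBP7 (115 ± 10.7), IGFBP6 (28.9 ± 1.91), IGFBP3 (18.2 ± 0.464), IRS2 (13.6 ± 1.67), IRS1 (13.5 ± 0.148), IGF2R (9.68 ± 0.803), IGF1R (3.76 ± 0.295) and INSR (3.74 ± 0.432). In control cells IGFBP4 (1183 ± 307 CPM per kb) and IGFBP7 (118 ± 12.1) again led, and IGFBP3 (28.1 ± 1.79) lay within the spread of IGFBP6 (29.8 ± 2.34). IGFBP3 was thus below IGFBP6 in every KO library, while the ranges of these genes overlapped in control cells. IRS2 and IRS1 did not differ beyond their spread in KO cells, and in control cells the range of IRS2 overlapped those of IRS1 and IGF2R. The ranges of IGF1R and INSR overlapped in both groups. IGFBP4 ranked 23 in KO and 18 in control cells among the 12973 tested genes with an exon length. The union of exons includes rarely used ones, so these levels are approximate.

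**Figure D4:**
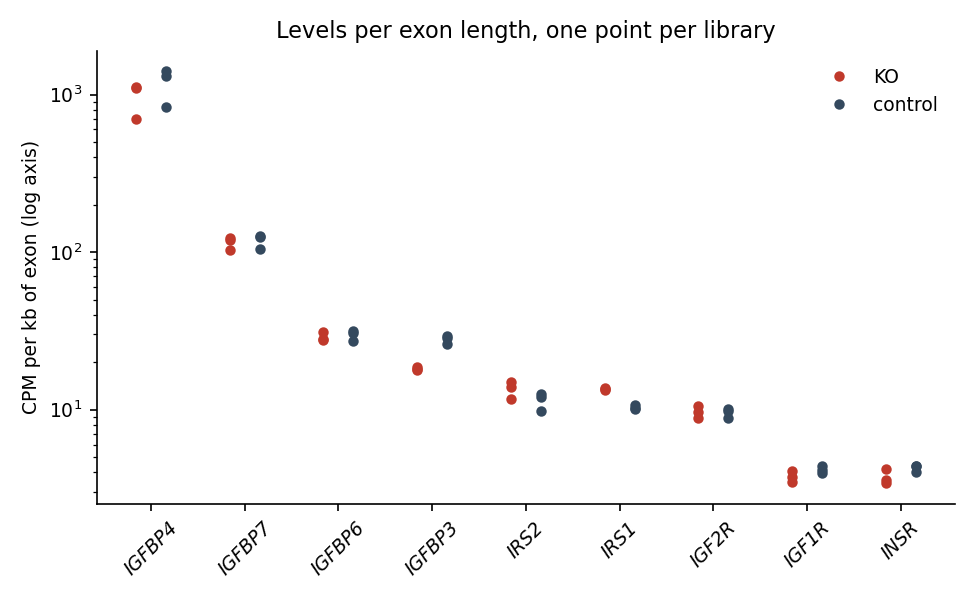
CPM per kilobase of annotated exon for each member on a log axis, one point per library, KO in red and control in dark blue. Transcripts of the secreted IGFBP4 ran from 698 to 1117 CPM per kb in KO and from 833 to 1403 in control libraries, while those of INSR, the lowest mean in KO, ran from 3.41 to 4.23 in KO and from 4.02 to 4.41 in control libraries.

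Genes of the same pathway were taken from lists written from general knowledge, but with earlier results of these data known. Ligand counts were low: IGF1 and INS had no count in any library. For IGF1 this allows at most 0.165 CPM in KO replicate 3 and 0.162 CPM in control replicate 2, the highest limit per group. IGF2 had 26, 27 and 46 counts in KO libraries, against 27, 31 and 58 counts in control libraries. INS and IGF2 share their locus with the INS-IGF2 readthrough gene, and the handling of reads over several genes is not given. The counts of both are therefore uncertain, and no limit is given for INS. Among binding proteins outside the 9, IGFBP2 and IGFALS, the acid-labile subunit of circulating IGF complexes, had no count, and IGFBP5 had between 5 and 16 counts in KO and between 4 and 16 in control libraries. IGFBP1, a binding protein repressed by insulin in liver, was abundant, at 181, 182 and 220 CPM in KO libraries, against 217, 209 and 255 CPM in control libraries. Its groups overlapped (log2 fold change -0.23, SE 0.10, adjusted p = 0.207 by edgeR), and with the replicate block it was lower in KO (adjusted p = 8.08e-07 by edgeR). IGFBPL1 had 42.0 ± 6.54 CPM in KO and 36.9 ± 2.59 CPM in control cells (log2 fold change 0.19, SE 0.11, adjusted p = 0.356 by edgeR); it passed with the block (adjusted p = 0.0191 by edgeR) and, with 1 library left out, in 1 of 6 fits, that without KO replicate 3 (log2 fold change 0.33, adjusted p = 0.0298 by edgeR). In the other 5 of these fits the edgeR adjusted p ran from 0.407 to 0.675, and the log2 fold change was as low as 0.11 (without KO replicate 1).

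Of 6 genes for IGFBP proteases and their stanniocalcin inhibitors, 5 were tested and 3 fell (60% passed, against 9.70% of all genes tested). STC1, a secreted glycoprotein that inhibits pappalysins, had 41.0, 39.4 and 43.8 CPM in KO libraries, against 76.6, 74.4 and 69.5 CPM in control libraries. The groups were well apart (1.78-fold lower in KO, log2 fold change -0.83, SE 0.07, adjusted p = 2.93e-04 by edgeR). PAPPA, the protease that cleaves IGFBP4, had 9.80, 11.9 and 9.30 CPM in KO libraries, against 15.6, 16.6 and 13.2 CPM in control libraries (log2 fold change -0.55, SE 0.13, adjusted p = 0.0337 by edgeR). PAPPA2, its relative that cleaves IGFBP3 and IGFBP5, had 1.14 ± 0.269 CPM in KO and 2.34 ± 0.104 CPM in control cells (log2 fold change -1.03, SE 0.24, adjusted p = 0.0301 by edgeR). PAPPA passed in 2 of the 6 fits that left out 1 library, and PAPPA2 in 0. The protease gene HTRA1 and STC2 did not pass, and ADAM12 had at most 10 counts in any library.

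Of 12 adaptor and phosphatase genes that act at the receptors, 9 were tested, 2 fell and 7 did not pass (22.2% passed, against 9.70% of all genes tested). GRB10, an adaptor that binds and inhibits the insulin and IGF1 receptors, had 56.3, 58.8 and 45.6 CPM in KO libraries, against 81.4, 77.0 and 64.9 CPM in control libraries (log2 fold change -0.47, SE 0.11, adjusted p = 0.0337 by edgeR). SH2B2, an adaptor of the insulin receptor, had 2.24 ± 0.599 CPM in KO and 4.12 ± 0.467 CPM in control cells (log2 fold change -0.88, SE 0.22, adjusted p = 0.0368 by edgeR). With 1 library left out, GRB10 passed in 2 of 6 fits and SH2B2 in 1. The list's median log2 fold change was 0.03.

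Of 13 PI3-kinase and AKT genes, 12 were tested, 2 rose, 1 fell and 9 did not pass (25% passed, against 9.70% of all genes tested). PIK3R1 and PIK3R3, which encode regulatory subunits of PI3-kinase that bind phosphorylated IRS proteins, were the 2 that rose. PIK3R1 had 19.9, 18.8 and 21.5 CPM in KO libraries, against 15.1, 15.1 and 13.8 CPM in control libraries (log2 fold change 0.46, SE 0.09, adjusted p = 0.0162 by edgeR). PIK3R3 had 12.6, 12.7 and 15.5 CPM in KO libraries, against 10.3, 8.30 and 8.59 CPM in control libraries (0.58, SE 0.13, adjusted p = 0.0242 by edgeR). PIK3R2 had 1 count in all libraries together. Genes overlapping PIK3R2 were not looked up and the handling of reads over several genes is not given, so this count does not show absence of its RNA. The catalytic subunit gene PIK3CD had 15.0 ± 1.28 CPM in KO and 19.5 ± 0.882 CPM in control cells, and fell (-0.38, SE 0.09, adjusted p = 0.0373 by edgeR). PIK3CD passed in 0 of the 6 fits that left out 1 library (edgeR adjusted p from 0.0512 to 0.157), PIK3R1 in 3 and PIK3R3 in 2. AKT1 and AKT2 were among the 9 genes that did not pass in the comparison of groups (adjusted p = 0.498 and 0.800 by edgeR). With the replicate block AKT1 was higher in KO (log2 fold change 0.11, adjusted p = 0.0190 by edgeR), with same-numbered log2 ratios of 0.13, 0.05 and 0.14, and AKT2 did not pass (adjusted p = 0.363 by edgeR). PIK3CA (-0.18, adjusted p = 0.0177 by edgeR) and INPPL1 (-0.15, adjusted p = 0.00146 by edgeR) were lower in KO with the block. Of this list 3 genes were higher and 3 lower with the block, which called 33.9% of all genes tested.

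Further down the pathway, the share that passed was 7.69% of the mTOR branch and 15.4% of the FOXO list, against 9.70% of all genes tested. Of 13 genes of the mTOR branch, MLST8, a subunit of both mTOR complexes, rose, with 53.6 ± 1.40 CPM in KO and 43.4 ± 1.81 CPM in control cells (log2 fold change 0.30, SE 0.06, adjusted p = 0.0202 by edgeR), and 12 did not pass. With the replicate block 5 of these 13 passed, 3 higher and 2 lower, against 33.9% of all genes tested. Among them was MTOR, the kinase itself (log2 fold change 0.26, adjusted p = 3.78e-05 by edgeR, and 0.215 without the block). The 2 lower genes were RPTOR (-0.18, adjusted p = 0.00227 by edgeR) and TSC1 (-0.17, adjusted p = 0.0165 by edgeR). Of 13 FOXO factors and FOXO-linked genes, 2 fell and 11 did not pass. FOXO4, a transcription factor that AKT holds in the cytoplasm, had 10.7 ± 1.19 CPM in KO and 16.1 ± 3.22 CPM in control cells (-0.59, SE 0.15, adjusted p = 0.0437 by edgeR), and CCNG2, a FOXO-responsive cyclin gene, 34.0 ± 0.840 CPM in KO and 43.0 ± 2.27 CPM in control cells (-0.34, SE 0.07, adjusted p = 0.0175 by edgeR). Both tested genes for IGF2 mRNA-binding proteins, which bind many other transcripts as well, fell. IGF2BP2 had 106 ± 3.71 CPM in KO and 130 ± 6.49 CPM in control cells (-0.29, SE 0.06, adjusted p = 0.0208 by edgeR). IGF2BP3 had 45.2 ± 4.43 CPM in KO and 60.7 ± 8.75 CPM in control cells (-0.43, SE 0.11, adjusted p = 0.0467 by edgeR), and did not pass with RLE size factors (adjusted p = 0.0505 by edgeR). Of the 6 fits that left out 1 library, MLST8 passed in 2, FOXO4 in 1, CCNG2 in 3, IGF2BP2 in 2 and IGF2BP3 in 1.

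**Figure D5:**
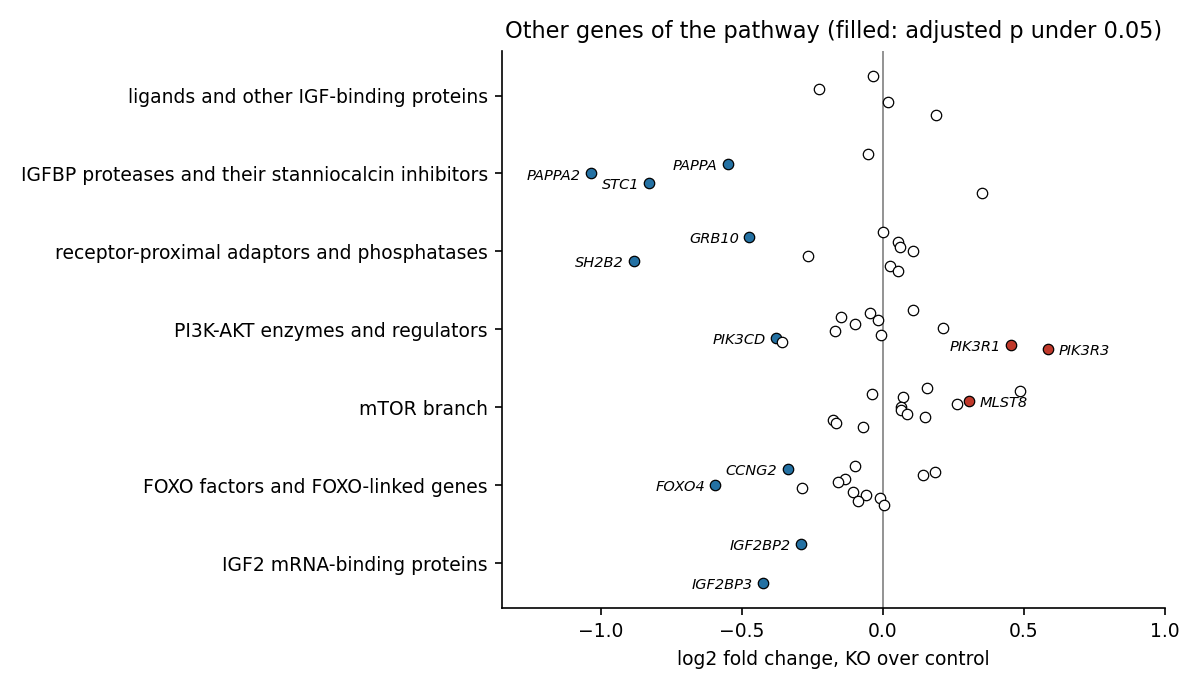
Log2 fold change, KO over control, of the 58 tested genes in 7 pathway lists; filled points had an adjusted p under 0.05 and carry gene names, red higher and blue lower in KO. The largest decreases that passed were those of PAPPA2, SH2B2 and STC1, and the largest increase was that of PIK3R3.

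Over the 7 lists, 13 of 58 tested genes passed (22.4%, against 9.70% of all genes tested), 3 higher and 10 lower, with a median log2 fold change of -0.04. Because earlier results were known when the lists were chosen, these shares cannot be read as enrichment of the pathway. With the replicate block 26 passed, 9 higher and 17 lower, against 33.9% of all genes. STC1 was the only gene of the 13 that passed in every fit that left out 1 library. Of the 13, 1 passed without KO replicate 1 (STC1), 4 without KO replicate 2, 9 without KO replicate 3, 2 without control replicate 1, 2 without control replicate 2 and 7 without control replicate 3; the largest adjusted p of the other genes in these fits was 0.174, for IGF2BP3.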

How the data were processed

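Counts of reads per gene were deposited by the authors for 6 libraries, raw and not normalized. The genome build was hg38 and reads were aligned and counted with STAR 2.7.9a and featureCounts, beside R 4.1.1 and FastQC 0.11.9, as the submitters' processing notes list them; annotation and the handling of reads over several genes were not given in the sources used here. Columns were matched to samples by library name.

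The members and lists were chosen with earlier results of these data known. Genes were kept by edgeR's filterByExpr (14704), scaled with TMM factors and tested with edgeR's quasi-likelihood test, group as the only term (R 4.3.3, edgeR 4.0.16, DESeq2 1.42.0 as an alternative). The procedure was tested on simulated data with independent libraries and no replicate effect, so that test does not cover the shift of replicate 3. CPM, SD, SE and 95% intervals were computed here; limits for a count of 0 use 3 counts and cover counting error only. Positions and exon lengths are from GENCODE 29 (88.2% of tested genes matched by name). Named genes were the 9 members, ETV1, ETV4, ETV5, the ligand list, and up to 3 genes per direction of each other list that passed; further genes named with values were chosen after these were seen. Some genes of the pathway are not reported here.

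Both groups carry replicate numbers 1, 2 and 3. Deviations from the group mean over 10032 genes correlated at 0.55, 0.45 and 0.83 between same-numbered libraries. The main fit did not pair libraries, and the replicate block, which does, was an alternative. Any pairing by number comes from the data, not from the labels. KO 2 with control 1 (0.59) and KO 1 with control 2 (0.58) correlated more highly than the same-numbered libraries 1 (0.55) and 2 (0.45). The correlations thus set replicate 3 apart and give no ground for pairing numbers 1 and 2 by number. Alternatives were other size factors, DESeq2, 2 other filters, the replicate block, leaving out each library, and leaving out both replicate-3 libraries.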

Additional observations from a re-analysis of the deposited data

How the results depend on the processing

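The count of genes that passed over all genes was 1427, against 4983 with the replicate block, 3754 without both replicate-3 libraries and 572 to 1741 with 1 library left out. Of the 9 members 2 passed, against 6 with the block, 5 without both replicate-3 libraries (IGFBP3, IGFBP4, INSR, IRS1 and IRS2) and 2 to 3 with 1 library left out. Of the other pathway genes 13 passed, against 26 with the block, 22 without both replicate-3 libraries and 1 to 12 with 1 library left out. The cause of these shifts was not tested. With 1 library left out, the log2 fold change of IGFBP7 ran from -0.12 to 0.060, that of IGF2R from -0.039 to 0.095 and that of ETV5 from -0.018 to 0.043, and none of these 3 passed in those fits. IGF2BP3 lost its call with RLE size factors, which left 12 of the 13. The block changed the call of no member other than IGFBP4, IGF1R, INSR and IRS2. IGFBP3 and IRS1 kept their direction and passed under every alternative run, other size factors, DESeq2 and other filters included. The lowest member count in a library was 665, of INSR; PAPPA2, SH2B2 and IGF2 rest on few counts.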

Other observations

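Ratios of raw counts within a library do not depend on scaling between libraries. The ratio of IRS1 to IRS2 counts was 1.08, 1.20 and 1.40 in KO libraries, against 1.04, 1.03 and 1.27 in control libraries, and the groups overlapped (exact two-sided permutation test, p = 0.5); in each same-numbered pair the KO value was the higher. The ratio of IGF1R to INSR counts was 1.36, 1.51 and 1.18 in KO libraries, against 1.46, 1.26 and 1.21 in control libraries (exact permutation p = 0.8). The ratio of IGFBP3 to IGFBP4 counts was 0.0348, 0.0343 and 0.0529 in KO libraries, against 0.0437, 0.0452 and 0.0650 in control libraries (exact permutation p = 0.3); in each same-numbered pair the KO value was the lower. The ratio of IGFBP3 to IGFBP7 counts was 0.368, 0.349 and 0.409 in KO libraries, against 0.556, 0.545 and 0.592 in control libraries, and the groups did not overlap. Its exact permutation p of 0.1 is the smallest that 3 against 3 libraries allow. These 4 ratios were chosen after the counts were seen; the Benjamini-Hochberg adjusted p of the last was 0.4.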
